A study of Mus musculus with 17 samples.

Results

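The fluid that surrounds sperm in the epididymis holds small secreted proteins whose genes lie in tandem clusters, and the start sites of 7 such gene families were read here in nuclease maps of mouse chromatin. The families are the lipocalins (Lcn), the Kazal-type serine protease inhibitors (Spink), the whey acidic protein domain proteins (Wfdc), the cystatins (Cst), the secreted ribonucleases (Rnase), the cysteine-rich secretory proteins (Crisp) and the binder of sperm proteins (Bsph). Members were taken by gene symbol alone: every RefSeq start site whose symbol begins with 1 of these names followed by a digit. This gave 67 distinct start sites of 64 genes, out of 23456 used, with 10 Lcn, 12 Spink, 19 Wfdc, 9 Cst, 12 Rnase, 3 Crisp and 2 Bsph sites. The symbol rule also takes in relatives that are best known elsewhere, such as Lcn2 of neutrophils, Spink5 of skin and Cst3, which most tissues secrete.

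As background, lipocalins carry small hydrophobic molecules, Kazal-type, whey acidic protein domain and cystatin proteins block proteases, and several of the ribonucleases in the cluster are epididymal proteins that lack the catalytic residues of pancreatic ribonuclease. Crisp and Bsph proteins bind sperm during their passage through the epididymis. Many of the genes are switched on in the epithelium of the tract, several of them under androgen. Others are expressed elsewhere, such as Crisp2 and Spink2 in the testis and Cst3 in most tissues. Neither embryonic stem cells nor mature sperm are cells of that epithelium. Micrococcal nuclease (MNase) cuts DNA that no protein holds, so the fragments it leaves mark protected DNA, and in sperm most histones have given way to protamines.

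The ES cells were E14, a cell line of 129 X Ola background grown without feeder cells, and the sperm were swim-up cells of C57/B6J mice aged 10 weeks, taken from the vas deferens and the cauda of the epididymis and crosslinked with formaldehyde. The libraries used were the supernatant of digested ES cells, that of sperm in the standard digestion (standard sperm below), and 3 sperm titrations. These were an unspun series with 0.5, 2, 10 and 50 units of MNase, and supernatant and pellet series with 1, 5, 20 and 100 units each. Each of these 14 groups was 1 library, so no difference below has a replicate check and none was tested, and cell type, strain and digestion differ together between ES cells and sperm and cannot be told apart. The fragments are genomic DNA, so the identity of the cells could not be checked against marker genes. The sources used here do not give the number of mice pooled per library.

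Signal is given in fragment equivalents, the table sum divided by what an isolated fragment adds, within 1000 bp of the start site. ES cells had 774480 fragment equivalents around all start sites and standard sperm 519467, while single libraries of the unspun series had 15882 to 19577, of the supernatant series 7185 to 16425 and of the pellet series 2272 to 13639. A member therefore held a median of 42.5 fragments in ES cells (4.41 to 79.9) and 27.6 in standard sperm (5.59 to 64), but on average about 1 fragment or fewer in each titration library. Ratios at single members were read only between ES cells and standard sperm, and the titrations were read over whole families. The 95% intervals cover counting error only. Signal of a single fragment may reach beyond stretches of 200 bp, so values in such short stretches are coarse. A ratio compares a start site's share of its own library's signal, as log2 of standard sperm over ES cells after adding 1 fragment to each.

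Of the 67 start sites, 31 were in the low-CpG class of the deposited tables, 16 in the intermediate-CpG class and 3 in the high-CpG class (Cst3, Cst6 and Spink10), and 17 had no class. They fell into 9 clusters of at least 2 start sites on chromosomes 2, 7, 11, 14, 17 and 18 and 7 lone sites. The Lcn sites of chromosome 2 spanned 1177 kb, the Cst sites 634 kb and the Wfdc sites 560 kb (mm9). Windows of 4 members overlapped that of the previous member, so these pairs share fragments. Wfdc8 and Wfdc6b start 73 bp apart, the 2 start sites of Wfdc6a 270 bp apart, those of Rnase10 closer still, and Wfdc9 and Wfdc10 1079 bp apart.

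Promoters from the families and members with high or low ratios are shown first, with all of Crisp because its promoters resemble each other, as the 250 bases before the RefSeq start in GRCm38.p6, 5′ to 3′ on the gene's strand, from RefSeq. Capitals mark TATAAA (the TATA box), AGAACA (the core of an androgen receptor site), CCAAT and GGGCGG (the GC box), each searched on both strands. These 4 motifs do not overlap each other in the promoters shown. Bsph2 and the Crisp genes had ratios above 0, though the intervals of Crisp1 and Crisp3 hold 0. Bsph2 lies at chr7:13571068-13571317 (minus strand), Crisp1 at chr17:40319208-40319457 (minus), Crisp2 at chr17:40794147-40794396 (minus) and Crisp3 at chr17:40242289-40242538 (minus).
Bsph2: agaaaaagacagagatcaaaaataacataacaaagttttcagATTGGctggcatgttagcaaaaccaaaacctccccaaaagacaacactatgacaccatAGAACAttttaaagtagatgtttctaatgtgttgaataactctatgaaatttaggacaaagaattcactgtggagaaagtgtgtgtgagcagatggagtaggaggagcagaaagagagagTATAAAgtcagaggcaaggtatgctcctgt
Crisp1: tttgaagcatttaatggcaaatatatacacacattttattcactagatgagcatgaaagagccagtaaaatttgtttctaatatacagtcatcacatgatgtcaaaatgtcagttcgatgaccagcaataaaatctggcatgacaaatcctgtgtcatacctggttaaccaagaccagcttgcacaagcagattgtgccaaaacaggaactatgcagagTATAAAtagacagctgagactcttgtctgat
Crisp3: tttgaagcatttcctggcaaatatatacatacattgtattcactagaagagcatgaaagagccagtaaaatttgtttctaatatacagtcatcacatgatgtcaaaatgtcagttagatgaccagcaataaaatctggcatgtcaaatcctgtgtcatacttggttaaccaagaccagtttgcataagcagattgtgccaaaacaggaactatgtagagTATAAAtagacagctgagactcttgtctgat
Crisp2: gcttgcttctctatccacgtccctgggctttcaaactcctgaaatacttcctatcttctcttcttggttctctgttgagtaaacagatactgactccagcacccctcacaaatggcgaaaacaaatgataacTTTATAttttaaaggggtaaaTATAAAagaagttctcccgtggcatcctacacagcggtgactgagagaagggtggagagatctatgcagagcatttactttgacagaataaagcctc

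Bsph2, Crisp1 and Crisp3 each hold TATAAA with its first base at -30 or -31, counted back from the last base before the start. Crisp2 holds it farther out, at -97, with the reverse letters TTTATA at -118. Of all 32851 promoters in the table, 12.4% hold TATAAA on either strand in this window. Bsph2 also holds AGAACA at -150, letters found in 16.1% of promoters, and the reverse of CCAAT at -208, found in 33.8%. Bsph2 and Crisp3 have no CpG in the window and Crisp1 has 1, against a median of 6 over all promoters, and 7.87% of promoters have none. The Crisp1 and Crisp3 promoters are near copies, with 13 differing letters in 300 bases from 250 before to 50 after the start (95.7% identical without gaps). Fragments there could be credited to either gene or dropped, depending on how reads with several matches were treated, which the sources used here do not state.

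Wfdc10, Lcn2 and Lcn6 had lower shares in standard sperm, though the intervals of Lcn2 and Lcn6 hold 0. Wfdc10 lies at chr2:164655796-164656045 (plus strand), Lcn2 at chr2:32387740-32387989 (minus) and Lcn6 at chr2:25676536-25676785 (plus).
Wfdc10: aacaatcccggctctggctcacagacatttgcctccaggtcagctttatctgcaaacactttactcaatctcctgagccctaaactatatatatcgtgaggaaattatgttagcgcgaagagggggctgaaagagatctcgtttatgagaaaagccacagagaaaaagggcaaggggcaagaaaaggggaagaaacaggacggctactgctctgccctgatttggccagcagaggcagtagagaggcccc
Lcn2: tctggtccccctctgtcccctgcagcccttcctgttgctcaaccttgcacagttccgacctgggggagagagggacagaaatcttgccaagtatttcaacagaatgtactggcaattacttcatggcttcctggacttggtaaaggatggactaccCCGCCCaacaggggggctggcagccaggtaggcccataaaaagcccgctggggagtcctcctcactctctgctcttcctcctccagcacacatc
Lcn6: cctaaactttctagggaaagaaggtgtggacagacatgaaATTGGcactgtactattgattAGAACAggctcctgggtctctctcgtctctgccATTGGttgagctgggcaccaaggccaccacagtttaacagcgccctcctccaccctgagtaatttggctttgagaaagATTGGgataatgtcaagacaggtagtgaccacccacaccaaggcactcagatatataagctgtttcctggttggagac

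None of these 3 windows holds TATAAA. Only these exact letters were searched, so other forms of the TATA box were not sought, and Lcn6 holds the similar letters TATATAA close to its start. Wfdc10 has 6 CpG and none of the 4 motifs, Lcn2 has 3 CpG and the reverse of the GC box at -94, and Lcn6 has 2 CpG, AGAACA at -189 and the reverse of CCAAT at -210, -156 and -78. The GC box letters are in 32.7% of all promoters. GC content was 49.2%, 56.4% and 48.4% in Wfdc10, Lcn2 and Lcn6, and 37.2%, 36.8%, 35.6% and 42.4% in Bsph2, Crisp1, Crisp3 and Crisp2, with a median of 52.4% over all promoters. These 7 promoters were chosen with their ratios known. A comparison of base composition over all members is void, because the promoter table holds a match for 49 of 67 members (73.1%), under the 80% needed.

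Over all members, 40 of 67 (59.7%) had a higher share in standard sperm than in ES cells, beside 45.4% of all start sites and 63.1% of the other 2802 low-CpG start sites. The members held 2713 fragments in ES cells, 1.23 times the average start site, and 2043 in standard sperm, 1.38 times the average. The pooled log2 ratio was 0.17 (0.08 to 0.25) and the median 0.10, beside a median of -0.08 over all start sites and 0.23 over the other low-CpG sites. The sign rested on the choice of scale: scaled to the other low-CpG start sites, the pooled ratio was -0.14, the median -0.20 and 24 of 67 were higher. In a window of 200 bp to each side the pooled ratio was -0.10 (-0.30 to 0.11) and the median -0.06. There 30 of 67 members (44.8%) were above 0, beside 57.5% of all start sites and 62.2% of the other low-CpG sites. The medians of these 2 sets were 0.19 and 0.28. The 1 fragment added to each library lifts near-empty sites above 0, because standard sperm had fewer fragments. The pooled ratios, made without it, were 0 for all start sites and -0.34 for the other high-CpG sites. Yet 57.5% and 54.9% of these sites were above 0. The share of members above 0 lay between those of the 2 sets in the window of 1000 bp. In the window of 200 bp it lay below both, but near-empty sites count in those shares. The members also mix CpG classes. Within 200 bp the 31 low-CpG members had 61.3% above 0 and a pooled ratio of 0.15, beside 62.2% and 0.28 for the other low-CpG sites. The 16 intermediate-CpG members had 12.5% and -0.68, beside 53.9% and 0.01 for the other intermediate-CpG sites.

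At least 1.5-fold higher shares in standard sperm were found at 15 members (22.4%), beside 17.9% of all start sites and 31.2% of the other low-CpG sites. At least 1.5-fold lower shares were found at 3 members (4.48%), beside 22.8% and 12.9%. The 3 lower ones were Wfdc10, Wfdc12 and Lcn2. Scaled to the other low-CpG sites these counts became 5 and 15. With at least 20 fragments required, which leaves out Wfdc8 and Wfdc6b, 38 of 65 members were higher and 14 at least 1.5-fold higher. The counting interval lay above 0 at 11 members (16.4%), beside 11.2% of all start sites and 26.7% of low-CpG sites. These were Spink1, Spink5, Spink7, Spink10, Spink12, Wfdc15b, Cst9, Rnase2a, Crisp2, Bsph1 and Bsph2. It lay below 0 at 1 member, Wfdc10 (1.49%), beside 11% of all start sites, and it held 0 at the other 55. Across the 67 members the fragments in ES cells and in standard sperm had a Spearman correlation of 0.58, beside 0.62 over all start sites, where windows share mappability and base composition between the libraries.

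**Figure D1:**
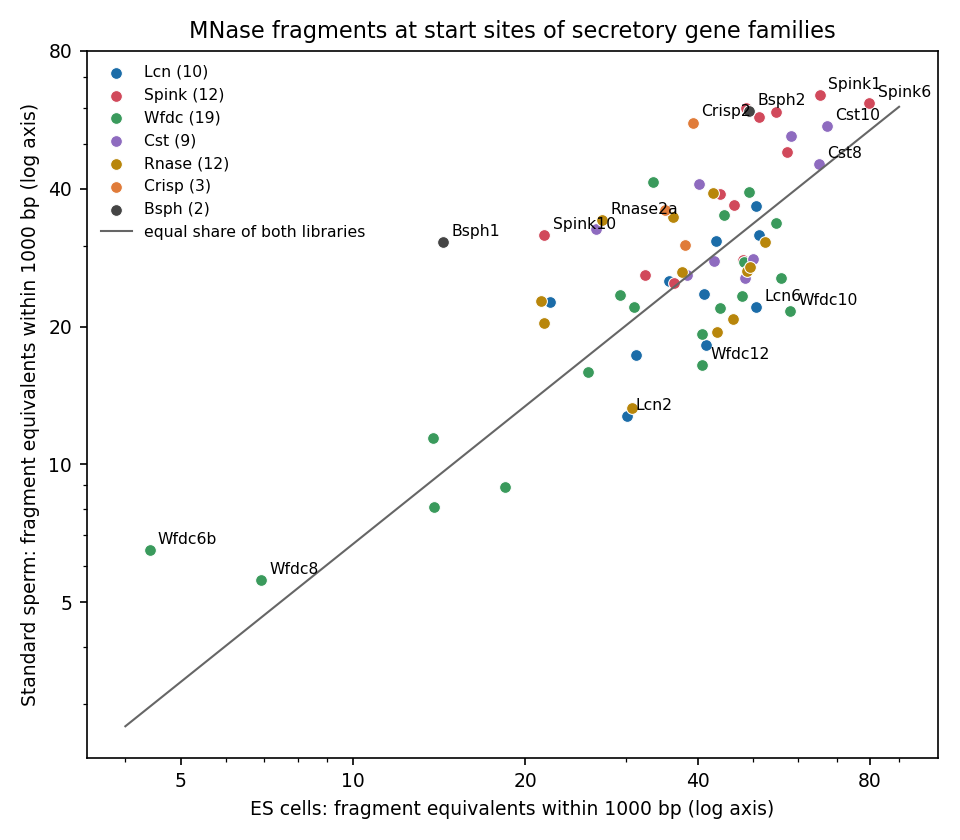
Fragment equivalents within 1000 bp of each of the 67 start sites in ES cells (horizontal, log axis) and standard sperm (vertical, log axis), coloured by family with the number of start sites in brackets; the line marks an equal share of both libraries. Bsph1, Crisp2 and Spink10 lie well above the line and Wfdc10, Wfdc12 and Lcn2 below it, while Wfdc8 and Wfdc6b have the fewest fragments.

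The families differed in their pooled ratios, and 3 of 7 had counting intervals above 0 in the window of 1000 bp. The Bsph pair had a pooled log2 ratio of 1.07 (0.59 to 1.55), with 63.5 fragments in ES cells and 89.7 in standard sperm. Crisp had 0.69 (0.32 to 1.08), with 112.5 and 121.8 fragments, and Spink 0.45 (0.28 to 0.62), with 586 and 536. Cst had 0.18 (-0.03 to 0.39), Rnase 0.04 (-0.17 to 0.25), Wfdc -0.12 (-0.30 to 0.06) and Lcn -0.14 (-0.38 to 0.09). Scaled to the other low-CpG start sites, Bsph stayed at 0.77, Crisp at 0.39 and Spink at 0.14 (-0.03 to 0.31), while Cst became -0.12, Rnase -0.27, Wfdc -0.43 and Lcn -0.45. Within 200 bp of the start the intervals of these 3 families held 0. There Bsph was at 0.63 (-0.56 to 1.89), Crisp at 0.18 (-1.31 to 1.66) and Spink at 0.10 (-0.30 to 0.48). Without the Spink family the pooled ratio of the remaining 55 members within 1000 bp was 0.08 (-0.02 to 0.17).

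**Figure D2:**
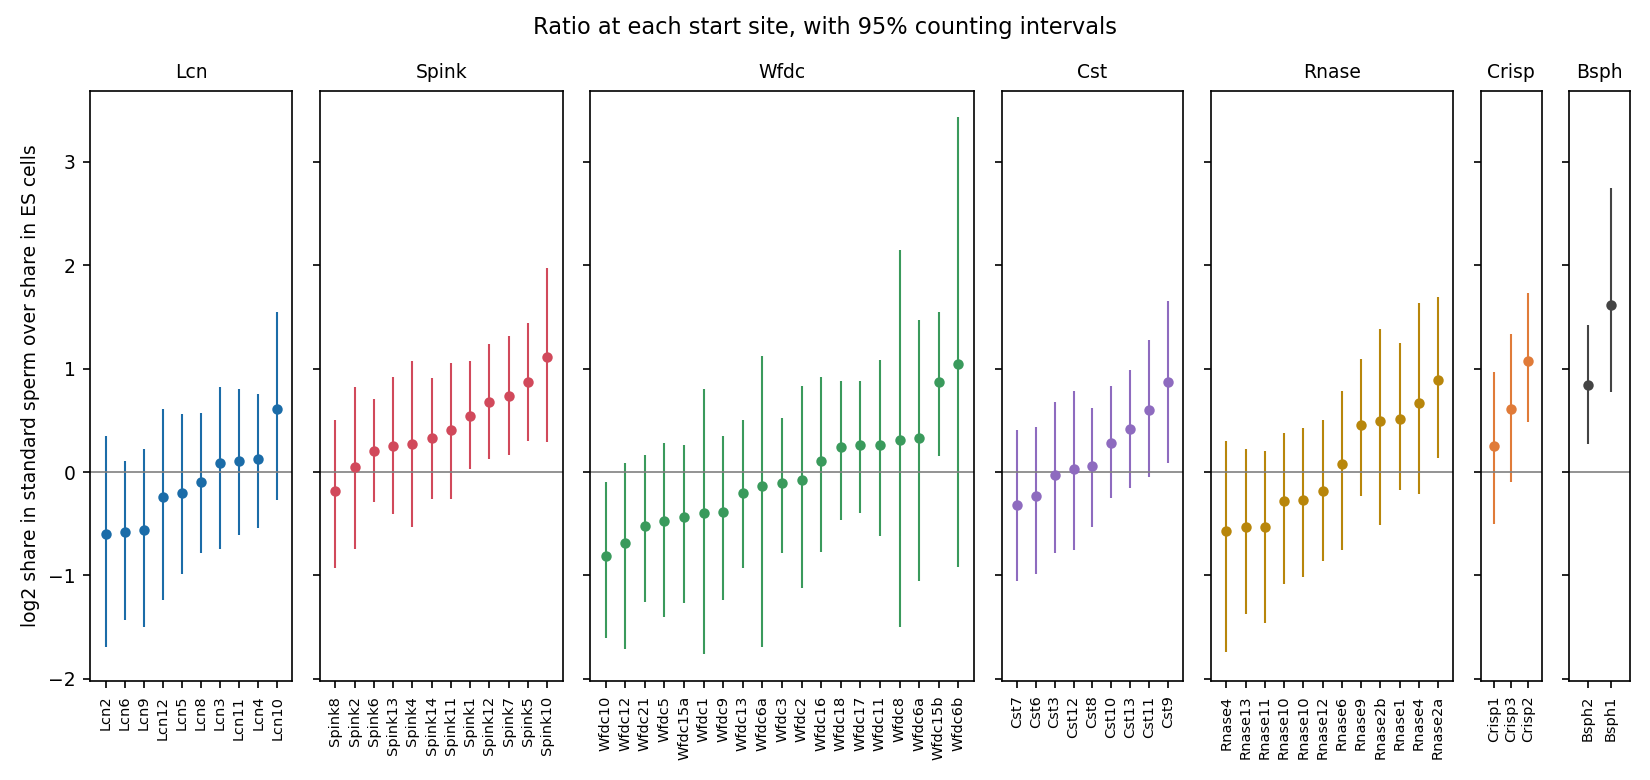
Log2 ratio of standard sperm to ES cells at every start site, ordered within each family; points carry 1 added fragment and bars are 95% counting intervals made without it. All but 1 Spink point and every Crisp and Bsph point lie above 0, whereas Lcn, Wfdc, Cst and Rnase points lie on both sides.

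The binder of sperm proteins attach to lipids of the sperm membrane and act in capacitation. Bsph1 had 14.4 fragments in ES cells and 30.6 in standard sperm, a log2 ratio of 1.62 (0.77 to 2.75), and 1 fragment in the 4 unspun libraries together. Its far upstream stretch, 1000 to 500 bp before the start, held 0 fragments in both ES cells and standard sperm, and the 500 bp after the start held 9.64 and 17.3. Bsph2 had 49.1 fragments in ES cells and 59.1 in standard sperm, a ratio of 0.84 (0.27 to 1.42), and 0.77 in the unspun libraries. Both genes were thus higher in standard sperm, Bsph1 from a much lower level in ES cells. Within 200 bp Bsph1 had 5.27 fragments in ES cells and 4.82 in standard sperm (0.56), and Bsph2 8.09 and 8.18 (0.68). The pooled ratio of the pair there was 0.63 (-0.56 to 1.89), an interval that holds 0. Medians in that window were 0.19 over all start sites and 0.28 over the other low-CpG sites. In the 500 bp after the start Bsph2 had 5 fragments in ES cells and 13.4 in standard sperm, and in the 500 bp before it 17.1 and 15.3. These counts are not scaled to depth. Standard sperm had 519467 fragments against 774480 in ES cells, so the lower count before the start is not a lower share.

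Crisp1 is an epididymal protein that coats sperm, Crisp2 is made in the testis and stored in the acrosome, and Crisp3 is best known from salivary and other exocrine glands. Crisp2 had 39.3 fragments in ES cells and 55.8 in standard sperm, a log2 ratio of 1.07 (0.48 to 1.73), though within 200 bp the ratio was -0.02. Crisp3 had 35.1 and 35.9, a ratio of 0.61 (-0.10 to 1.33), and Crisp1 38 and 30.1, a ratio of 0.25 (-0.51 to 0.96). Only the Crisp2 interval of these 3 excludes 0. The 4 other start sites within the bounds of the Crisp cluster had a pooled ratio of 1.06 (0.77 to 1.36), beside 0.69 for the Crisp sites. A high ratio was thus not particular to the Crisp genes in this region. In ES cells the 200 bp before the start held 0 fragments at Crisp1, 0.14 at Crisp3 and 1.64 at Crisp2, which together was 0.16 times the flanks (0.02 to 0.65). In standard sperm the same stretch held 0.91, 0.68 and 2.95 fragments, or 0.30 times the flanks (0.10 to 0.77). The near-identical promoter letters of Crisp1 and Crisp3 printed above cover this stretch, and their part in the low values was not tested.

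Of the 12 Spink start sites, 11 had a higher share in standard sperm. Spink10 had 21.6 fragments in ES cells and 31.7 in standard sperm, a log2 ratio of 1.11 (0.29 to 1.97), at a promoter classed as high-CpG. Spink5, whose product restrains kallikreins in skin, had 48.7 and 60.05, a ratio of 0.87 (0.30 to 1.44), and no fragment in the unspun libraries. Spink1, the trypsin inhibitor of the pancreas, had 65.4 and 64, a ratio of 0.55 (0.03 to 1.07). Spink6 had the most fragments of any member in ES cells, 79.9, with 61.6 in standard sperm and a ratio of 0.21 (-0.29 to 0.71). Spink2, which serves in acrosome formation in the testis, had 36.3 and 24.9, a ratio of 0.05 (-0.75 to 0.83), and -1.43 in the 200 bp window. Spink8, an epididymal member, was the 1 Spink site below 0, with 48 and 28 fragments and a ratio of -0.18 (-0.93 to 0.50).

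The Spink cluster of 6 sites on chromosome 18, from Spink1 to Spink11, had a pooled ratio of 0.50 (0.28 to 0.72) with 349.7 fragments in ES cells and 331.5 in standard sperm. The 4 other start sites within its bounds had 0.28 (0.00 to 0.56). A second group on the same chromosome, Spink10, Spink7 and Spink13, had 0.65 (0.29 to 1.03). Spink4, Spink2 and Spink8, which lie alone on chromosomes 4, 5 and 9, had ratios of 0.27, 0.05 and -0.18, with intervals that hold 0. In the 200 bp window the cluster of 6 was at -0.02 and the group of 3 at 0.99.

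The cystatins of chromosome 2 include Cst8, Cst11 and Cst12, expressed in the male tract, and Cst9, first described in fetal testis. Cst9 had 26.6 fragments in ES cells and 32.7 in standard sperm, a log2 ratio of 0.87 (0.09 to 1.66). Cst11 had 40.3 and 40.9, a ratio of 0.60 (-0.05 to 1.28). Cst10 had the most signal of the family, 67.4 and 54.7, a ratio of 0.28 (-0.25 to 0.83). Cst8 and Cst12 were near 0, with 65.1 and 45.2 fragments (0.06) and 38.3 and 25.9 fragments (0.03). Cst3, with a high-CpG promoter, had 42.8 and 27.8 fragments and a ratio of -0.03 (-0.78 to 0.68). The 7 sites of the cluster pooled to 0.30 (0.06 to 0.53), and within 200 bp of the start to 0.64. The upstream 200 bp at Cst11 held 0 fragments in ES cells and 2.95 in standard sperm.

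The lipocalin cluster of chromosome 2 holds Lcn5, the epididymal retinoic acid binding protein, and its epididymal neighbours Lcn6, Lcn8, Lcn9 and Lcn12. Its 9 start sites had a pooled log2 ratio of -0.11 (-0.36 to 0.13). The 45 other start sites between them, which include the related odorant-binding Obp2a, had -0.56 (-0.69 to -0.42), so the Lcn sites were above their neighbours and the intervals do not overlap. High-CpG start sites outside the families had -0.24 over the genome, and the CpG classes of these neighbours were not compared. Lcn6 had 50.5 fragments in ES cells and 22.1 in standard sperm, a ratio of -0.58 (-1.43 to 0.11). Lcn9 had 41.4 and 18.3, a ratio of -0.56 (-1.50 to 0.22). Lcn5 had 41 and 23.5, a ratio of -0.20 (-0.99 to 0.56), and Lcn8 had 51.1 and 31.7, a ratio of -0.10 (-0.78 to 0.57). Lcn12 had 31.2 and 17.3 (-0.24), and Lcn4, of the nasal glands, 50.6 and 36.7 (0.12). Lcn2, which binds bacterial siderophores and lies apart from the cluster, had 30.1 and 12.8, a ratio of -0.60 (-1.69 to 0.35). In the 300 bp after the start Lcn2 had 8.36 fragments in ES cells and 0.32 in standard sperm, and Lcn5 6.23 and 0.36.

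Among the Wfdc start sites 8 of 19 were higher and 11 lower in standard sperm. The 8 include Wfdc8 and Wfdc6b, which had too few fragments for a ratio to be read. Wfdc10 had 58.1 fragments in ES cells and 21.6 in standard sperm, a log2 ratio of -0.81 (-1.60 to -0.09), and lower values in each of 4 stretches of 500 bp, from 12.6 to 16 in ES cells and from 3.18 to 8.09 in standard sperm. Wfdc12 had 40.7 and 16.5, a ratio of -0.68 (-1.71 to 0.08), but 0.42 over the whole span of 2000 bp to each side. Wfdc15a had 47.8 and 23.3, a ratio of -0.43 (-1.27 to 0.26), and the adjacent Wfdc15b had 33.5 and 41.3, a ratio of 0.87 (0.15 to 1.55). These neighbours, 21546 bp apart, differed in sign over 1000 bp, but Wfdc15b was at -0.09 within 200 bp. Wfdc2, an abundant epididymal member, had 25.7 and 16 (-0.08), Wfdc3 54.8 and 33.7 (-0.11), and Wfdc1, alone on chromosome 8, 18.5 and 8.91 (-0.40). The intervals of these last 3 hold 0.

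Signal was very low in a stretch inside the Wfdc cluster of chromosome 2. Wfdc8 had 6.91 fragments in ES cells and 5.59 in standard sperm, and its neighbour Wfdc6b 4.41 and 6.50, or 0.21 and 0.13 times the average start site in ES cells. The 2 start sites of Wfdc6a had 13.8 and 13.9 fragments in ES cells and 11.4 and 8.09 in standard sperm. Wfdc6b and Wfdc6a were singled out after their values were seen. Their promoters are 66.9% identical over 296 bases, the highest identity after the Crisp pair among 288 pairs of members of a family, and all other pairs are at 57.2% or below. Since both libraries were low here, no ratio can be read at Wfdc8 or Wfdc6b, whose intervals run from -1.49 to 2.15 and from -0.92 to 3.43.

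The Rnase cluster of chromosome 14 had a pooled log2 ratio of 0.04 (-0.17 to 0.25) over its 12 start sites, 6 above and 6 below 0, while the 18 other start sites within its 915 kb had 0.44 (0.26 to 0.63). Rnase2a, an eosinophil-associated ribonuclease, had 27.2 fragments in ES cells and 34.2 in standard sperm, a ratio of 0.89 (0.14 to 1.69). Rnase1, the pancreatic type, had 36.2 and 34.7 (0.52), and Rnase9, an epididymal member, 42.5 and 39 (0.46). Rnase13 had 46 and 20.8, a ratio of -0.54 (-1.37 to 0.22), and Rnase11 43.2 and 19.5, a ratio of -0.53 (-1.46 to 0.21). Rnase12 had 52.4 and 30.5 (-0.18), Rnase6, an antimicrobial member, 37.5 and 26.3 (0.08), and the start sites of Rnase10 48.8 and 26.5 (-0.28) and 49.5 and 27 (-0.27). Of these, the interval excludes 0 at Rnase2a alone.

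Rnase4 has start sites 4923 bp apart that pointed in opposite directions. The one at the lower mm9 coordinate, 51710751 of chromosome 14, had 30.7 fragments in ES cells and 13.3 in standard sperm, a log2 ratio of -0.57 (-1.74 to 0.30). The other, at 51715674, had 21.3 and 22.7, a ratio of 0.66 (-0.21 to 1.63). In the 200 bp before the first, ES cells had 6.73 fragments and standard sperm 0, and in the 300 bp after it 2.68 and 0.09. The intervals of the 2 start sites overlap. Over the family, the 200 bp window gave a pooled ratio of -0.58 (-1.15 to -0.05), below that of the full window.

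The shape around the start differed between the libraries. In ES cells the members' signal over the 200 bp upstream stood at 0.89 times the flanks at 1000 to 2000 bp (0.78 to 1.01) and over the 300 bp downstream 0.92 times (0.83 to 1.02). In standard sperm these ratios were 0.70 (0.59 to 0.82) and 0.66 (0.58 to 0.76). The other low-CpG sites had 0.93 and 0.84 in ES cells and 0.85 and 0.67 in standard sperm, and all start sites had 0.56 and 0.53 in ES cells and 0.51 and 0.39 in standard sperm. The upstream ratio of the members in standard sperm thus lay below that of the other low-CpG sites (0.83 to 0.87), with intervals that do not overlap, while in ES cells the intervals overlapped. Of the 67 members only 31 are in the low-CpG class, and this ratio was not read by class. The mix of CpG classes and the gene families cannot be told apart here. The lowest smoothed value of the members' mean profile in standard sperm was 0.58, centred 30 bp after the start.

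**Figure D3:**
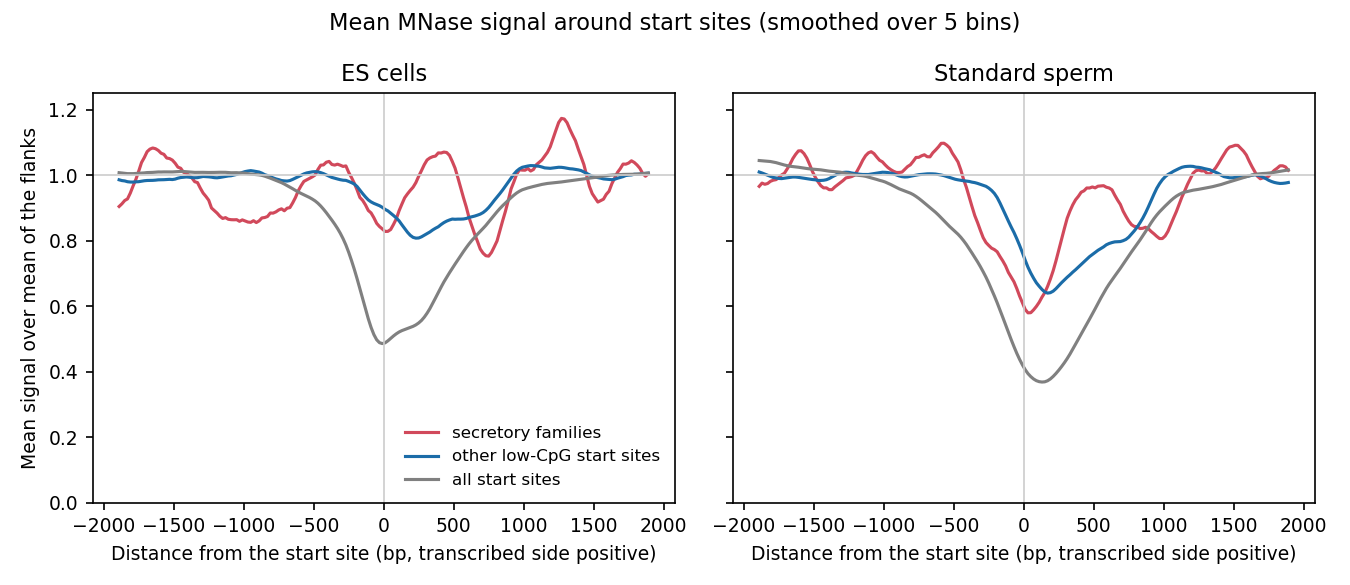
Mean signal by distance from the start site, divided by the mean of the flanks at 1000 to 2000 bp, in ES cells and standard sperm; lines are the secretory families (67 start sites), the other low-CpG start sites (2802) and all start sites (23456). In standard sperm the members dip to 0.58 at 30 bp and the other low-CpG sites to 0.64 at 170 bp, while in ES cells the lowest value of the members is 0.75, at 750 bp.

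By family, the upstream ratio in standard sperm was lowest at Crisp (0.30), Rnase (0.58) and Wfdc (0.60) and highest at Lcn (0.95). At Rnase the upstream ratios were 1.05 (0.79 to 1.39) in ES cells and 0.58 (0.36 to 0.88) in standard sperm, and at Spink 1.12 (0.86 to 1.44) and 0.80 (0.57 to 1.09). Downstream of the start, Lcn had 1.00 (0.75 to 1.30) in ES cells and 0.53 (0.32 to 0.83) in standard sperm, and Wfdc 0.97 (0.78 to 1.19) and 0.55 (0.39 to 0.74). Spink kept a downstream ratio near the flanks in both, 1.14 (0.91 to 1.40) and 1.00 (0.78 to 1.27). Cst was low downstream in both, 0.58 (0.41 to 0.80) and 0.58 (0.39 to 0.85). The highest bin lay within 100 bp of the same place in both libraries at 14 of the 65 members with at least 20 fragments (21.5%), beside 22.04% over all start sites.

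The titrations placed the families in another order than the standard digestion. Summed over the 4 unspun libraries, the members had 213 fragments, 1.04 times the average start site (0.91 to 1.20), and a log2 ratio to ES cells of -0.23 (-0.43 to -0.04), where standard sperm had 0.17. The other low-CpG start sites had -0.34 for the unspun libraries and 0.31 for standard sperm. Spink, at 2.02 times the average in standard sperm (1.85 to 2.19), was at 0.76 in the unspun libraries (0.51 to 1.11), 0.84 in the supernatant series (0.53 to 1.23) and 0.71 in the pellet series (0.37 to 1.18). Lcn, at 1.09 in standard sperm (0.96 to 1.23), was at 1.65 in the unspun libraries (1.22 to 2.17), 1.17 in the supernatant series (0.75 to 1.81) and 1.30 in the pellet series (0.77 to 2.18). The Spink value was thus above the Lcn value in ES cells (1.48 against 1.20) and standard sperm, and below it in each summed titration. Among the titrations, the unspun series is the one where the intervals of both families do not overlap. This pair was not planned and was picked from the 7 families with the values known, so the separate intervals are no test. At 1 unit of the supernatant series the order was the other way, with Lcn at 0.53 and Spink at 0.73 and intervals that overlap. The supernatant and pellet values rest on 7 Lcn and 11 Spink sites.

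Within the unspun series the Lcn sites had 19, 9.27, 13.5 and 8.45 fragments at 0.5, 2, 10 and 50 units, which is 2.28, 1.11, 1.99 and 1.22 times the average. The Spink sites had 7.86, 8.82, 5 and 6.05 fragments, or 0.79, 0.88, 0.62 and 0.72 times the average. Lcn was above Spink at every unspun dose, with single-dose intervals that overlap. Without Lcn12, its highest member with 8.77 fragments, the other 9 were at 1.51 (1.07 to 2.03). Without Spink4 (7.59 fragments) the other 11 Spink sites were at 0.60 (0.37 to 0.92). Cst was at 1.11, Wfdc at 1.16, Rnase at 0.78 and Crisp at 0.77 in the unspun libraries, with intervals that hold 1, and Bsph at 0.29 from 1.77 fragments (0.04 to 1.19).

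**Figure D4:**
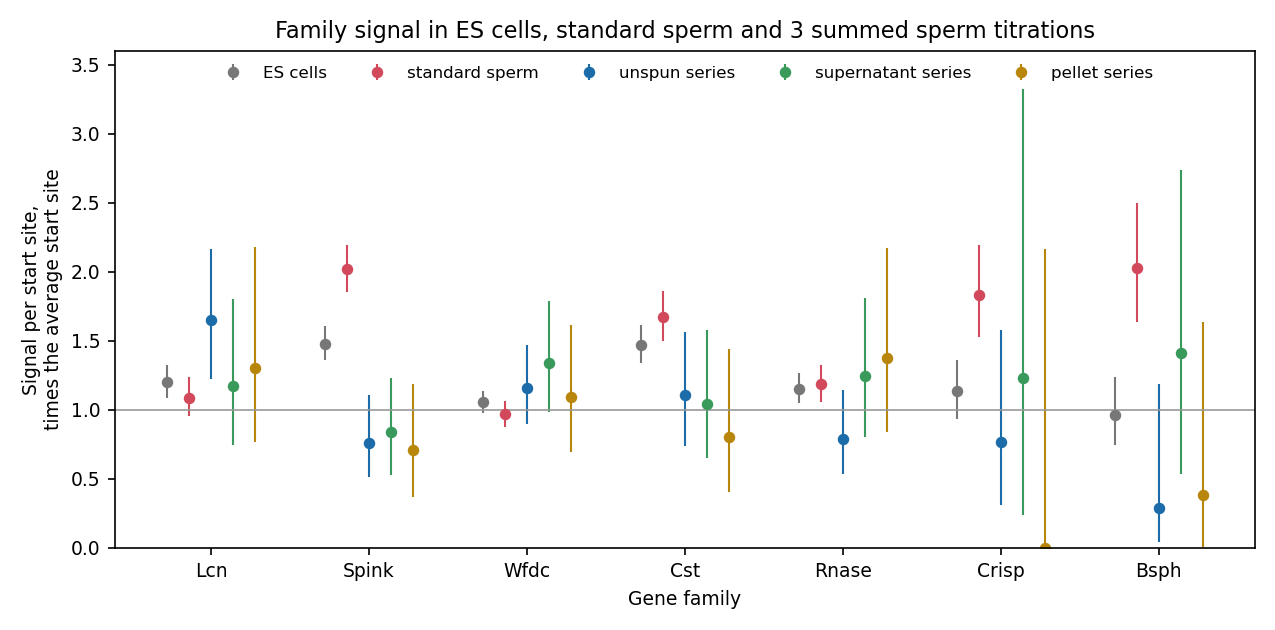
Signal per start site as a multiple of the average start site, by family, in ES cells, standard sperm and the 3 sperm titrations summed over their 4 doses each; bars are 95% counting intervals, and supernatant and pellet values come from the 50 members in the count tables. Spink is at 2.02 in standard sperm and 0.71 to 0.84 in the titrations, while Lcn is at 1.09 in standard sperm and 1.17 to 1.65 in the titrations.

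In each of the 3 series the members' share was lower at the highest MNase dose than at the lowest. For 0.5, 2, 10 and 50 units without a spin it was 1.37, 0.85, 1.10 and 0.84 times the average. In the supernatant series it was 1.31, 1.60, 1.17 and 0.84 at 1, 5, 20 and 100 units, and in the pellet series 1.45, 0.87, 1.28 and 0.81. The log2 slope per doubling of units was -0.0751 (-0.155 to 0.00458), -0.107 (-0.201 to -0.0134) and -0.0931 (-0.239 to 0.0525). The other low-CpG start sites had slopes of -0.0638, -0.0672 and -0.0948, values that lie inside the members' intervals. The 1-unit libraries had narrow signal, with 89.3% and 89.4% of isolated runs covering 1 or 2 bins, against at most 30.5% in the other count libraries. The slopes rested on single libraries. The supernatant slope was -0.216 (-0.366 to -0.0669) without the lowest dose and -0.0320 (-0.185 to 0.121) without the highest, and the unspun slope -0.00109 (-0.133 to 0.130) without the lowest. The pellet slope was -0.0312 without the lowest dose and -0.0504 without the highest. Scaled to the other low-CpG sites, the slopes were -0.0114, -0.0402 (-0.134 to 0.0538) and 0.00169, so the 1 interval below 0 was lost.

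**Figure D5:**
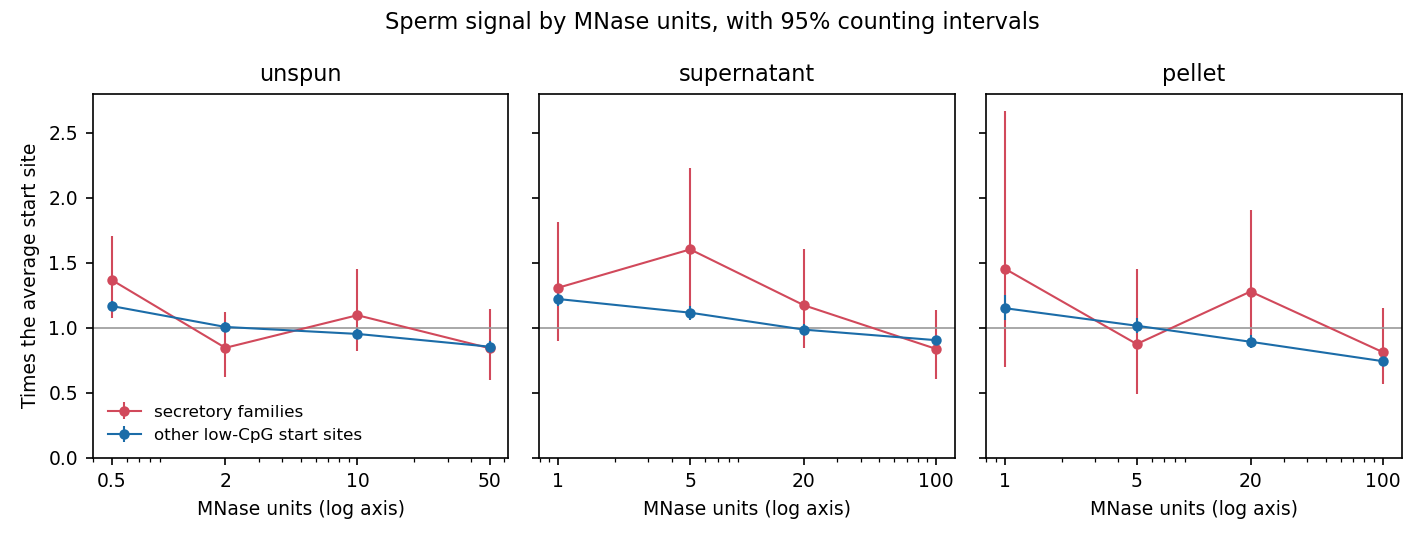
Signal per start site as a multiple of the average start site against MNase units (log axis) in the unspun, supernatant and pellet series, for the secretory families and the other low-CpG start sites; bars are 95% counting intervals. The secretory families scatter around the other low-CpG sites and end at 0.84, 0.84 and 0.81 at the highest dose.

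A list of 39 other genes of epididymal and accessory-gland secretion, outside the 7 families, was set beside the members, and 38 were measured. Their pooled log2 ratio of standard sperm to ES cells was 0.20 (0.08 to 0.32) and their median 0.18, with 24 of 38 higher (63.2%), beside 0.17, 0.10 and 59.7% for the members. Adam7, an epididymal membrane protein, had 39.4 fragments in ES cells and 44.6 in standard sperm (0.75), and Slpi, a whey acidic protein domain inhibitor named outside the Wfdc series, 33.1 and 38.5 (0.79). Gpx5, the glutathione peroxidase secreted by the epididymis, had 88 and 47.6 (-0.30), and Eppin, which joins whey acidic protein and Kunitz domains, 58.7 and 31.6 (-0.29). Svs3b and Stfa1 had no fragment in ES cells and 7.86 and 7.77 in standard sperm. These genes were picked from the list after their values were seen.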

How the data were processed

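Genomic DNA fragments left by MNase were measured in 14 libraries, 1 per group. 3 of the 17 samples were not analysed here. Per the submitters' processing notes, Bowtie and SAMtools 0.1.16 were used with the mm9 build. The sources used here do not state read filters. For ES cells, standard sperm and the unspun series the authors deposited a signal, the pileup of fragments of 135 to 165 bp (per the table names) in 20 bp bins over 2000 bp to each side of 28015 start sites. For the supernatant and pellet series the authors deposited counts per bin at 16493 start sites with a CpG class, read as 50 bp bins because close start sites then held equal values in 41 of 41 shared bins, a small basis. Neither is scaled to depth.

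Repeated positions were taken once and positions without signal in ES cells and standard sperm left out (628). Symbols came from RefSeq (GRCm38.p6), and start coordinates are mm9. An isolated fragment adds 22.0 to the pileup (78.5% of 87418 isolated runs) and 3.09 counts, so sums were divided by these. The pileup value came from the unspun libraries and was also applied to ES cells and standard sperm. It is larger than the number of 20 bp bins that a fragment of 135 to 165 bp covers, and the reason was not tested. Signal of a single fragment may thus reach beyond windows and stretches of 200 bp. The 1-unit libraries have narrower signal and their fragment equivalents are too low. Ratios used a pseudocount of 1 fragment, and pooled ratios and exact binomial (Clopper-Pearson) intervals were made without it. Slope intervals propagate the counting error. No test was run. Named members were the 8 highest and 8 lowest ratios with at least 20 fragments, the member with the most signal of each family and a list of known roles. Members, lists and cluster bounds (gaps of at most 1 Mb) were chosen with earlier results of these data known. The ratio and interval code was tested on simulated data (Python 3.11.15, numpy 2.4.6, pandas 2.3.3, scipy 1.17.1).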

Additional observations from a re-analysis of the deposited data

How the results depend on the processing

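The pooled log2 ratio of standard sperm to ES cells, 0.167 over the members, turned to -0.0959 in a window of 200 bp and to -0.139 when scaled to the other low-CpG start sites, and was 0.0790 without the Spink family, a setting chosen after seeing the data. The median turned to -0.0648 and -0.201 under the first pair of settings. With low-CpG scaling 24 members were higher, 5 at least 1.5-fold higher and 15 at least 1.5-fold lower. The number at least 1.5-fold lower was also 12 in the 200 bp window, 6 with a pseudocount of 0.25 fragments and 1 with a pseudocount of 5. Within 200 bp, Wfdc15b turned to -0.0944 and Crisp2 to -0.0186. The supernatant slope was -0.216 without the lowest dose, and its interval held 0 without the highest dose (-0.0320), with low-CpG scaling (-0.0402) and in the 200 bp window (-0.158). The unspun slope was -0.00109 without its lowest dose. The pellet slope turned to 0.0248 in the 200 bp window and 0.00169 with low-CpG scaling, inside its interval. Among alternatives that stayed within the counting interval or, for counts, within 1.5 times, 2 of 60 values that answer a comparison, the pellet slopes above, and 27 of 210 for single genes and families changed sign. Of 24 others for single genes and families, 8 changed sign. The cause was not tested. Each member held a median of 42.5 and 27.6 fragments in the ES cell and standard sperm libraries, so the intervals of 55 of 67 single ratios held 0, and the titrations could not be read at single members. No paired analysis was possible because each group has 1 library.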
